A study of Homo sapiens with 22 samples.

Results

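The genes described here carry cargo into autophagy and digest it in the lysosome: 45 genes, taken by symbol from the 26485 symbols in each count table. They were chosen by name, and all 45 were found. They comprise 5 autophagy receptors (SQSTM1, NBR1, OPTN, TAX1BP1, CALCOCO2), 5 members of the ATG8 family (MAP1LC3A, MAP1LC3B, GABARAP, GABARAPL1, GABARAPL2) and 12 core autophagy genes. They also comprise the transcription factors TFEB and TFE3, 18 lysosome genes, and 3 genes of the aggresome and protein quality control (BAG3, UBQLN2, VCP).

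HDAC6 is a mostly cytoplasmic deacetylase that binds ubiquitin and the dynein motor, and it carries ubiquitinated protein aggregates along microtubules to the aggresome. Autophagy receptors bind ubiquitinated cargo on one side and lipid-anchored ATG8 proteins on the other, which places the cargo inside the forming autophagosome. The autophagosome then fuses with the lysosome, whose hydrolases work at the acidic pH set by the V-ATPase, and TFEB and TFE3 switch on many of these genes through a short promoter element known as CLEAR.

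The study sequenced RNA from 22 libraries that its labels give as MDA-MB231, a cell line from a triple-negative breast tumour, in 3 experiments. In the first, 2 libraries (NextA) received the HDAC6 inhibitor Nexturastat A at 7.65 µM for 2 days, and 2 libraries (Ctrl) carry the treatment label DMSO, the genotype label WT and day 2. In the second, at day 0, 3 libraries carry a control hairpin (shCtrl, genotype label WT) and 3 each carry the hairpin shHDAC6-1 or shHDAC6-2 (genotype label HDAC6 knockdown). In the third, at day 2, 3 libraries each received DMSO, HPOB or Tubastatin A, all of genotype WT. HPOB and Tubastatin A are also inhibitors of HDAC6; the labels state no dose for either, and the titles of the Tubastatin A libraries carry the letters TSA. The labels do not state whether the replicates of a hairpin come from 1 line, or whether any line is clonal. Nothing says that replicates came from separate cultures.

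Library totals lay between 31.2 and 85.9 M (mega) counts. Levels are CPM, the counts of a gene per M of the library's total after scaling by TMM within an experiment. The targeted gene, HDAC6, stood at 45.6 and 52.9 CPM in shCtrl replicates 1 and 2, at 12.8 and 12.0 with shHDAC6-1 and at 12.4 and 14.0 with shHDAC6-2, and in replicate 3 at 22.7 against 9.66 and 12.1. HDAC6 was thus lower with each hairpin in every replicate, while edgeR called it with no compound (log2 fold changes of -0.19 with Nexturastat A, 0.08 with HPOB and 0.19 with Tubastatin A).

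Several knockdown libraries stood apart from Ctrl, which carries the same line label. In replicates 1 and 2 of the knockdown experiment, 6 genes typical of MDA-MB-231 (VIM, CD44, CAV1, AXL, MSN, FOSL1) summed to 1035 to 1142 CPM, against 5902 to 6009 in Ctrl. In the same libraries 3 genes of an embryonic kidney type of line (IRS4, LIN28B, IGF2BP1) summed to 649 to 1156 CPM, against at most 0.225 in Ctrl and DMSO. The replicate 3 shCtrl library resembled Ctrl (5732 CPM of the MDA-MB-231 genes and 0 of the kidney genes), and the 2 hairpin libraries of replicate 3 held 6685 to 7133 CPM and 22.2 to 65.7 CPM. CDKN2A, listed as low or lost in MDA-MB-231, stood at 143 and 147 CPM in shCtrl replicates 1 and 2. It stood at 143 to 187 in their hairpin libraries and at 0 in Ctrl, DMSO and shCtrl replicate 3. The hairpin libraries of replicate 3 held 7.46 and 25.2 CPM of it. Also listed as low or lost, CDH1 was at 5.22 to 7.57 CPM in replicates 1 and 2, against 4.09 to 5.37 in DMSO and at most 0.202 in Ctrl. ESR1 and PGR were at most 0.705 CPM in every library. The correlation of log levels over 14369 genes was 0.971 to 0.977 between shCtrl replicate 3 and Ctrl, but 0.657 to 0.676 between replicates 1 and 2 and Ctrl. The hairpin libraries of replicate 3 stood apart as well, at 0.770 to 0.800 with their own shCtrl and 0.761 to 0.792 with Ctrl. Ctrl and DMSO, which share the line label, were not alike either, at 0.864 to 0.871. The 6 MDA-MB-231 genes summed to 5659 to 5785 CPM in DMSO. However, 4 lung epithelium genes (NKX2-1, SFTPB, SFTPC, MUC5AC) summed to 211 to 305 CPM in Ctrl and 7.22 to 9.14 in DMSO. Replicates 1 and 2 and replicate 3 are therefore described apart throughout, and the part of these marker genes in the results below was not tested. Whether the libraries of replicates 1 and 2 come from the labelled line was not tested, so their results below are not shown to hold for MDA-MB-231. In bulk RNA, fewer cells of a type and less RNA per cell cannot be told apart.

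Per kilobase of their longest transcript, lysosome genes led the set in the control libraries. In Ctrl the highest levels were those of PSAP, the precursor of the saposins that help digest sphingolipids, at 354 ± 13.0 CPM per kb (SD, n = 2), and of CTSD, the lysosomal aspartic protease cathepsin D, at 277 ± 0.0555. SQSTM1, the receptor also known as p62, followed at 171 ± 0.125, ahead of VCP, an ATPase that extracts ubiquitinated proteins, at 99.0 ± 4.15 and GABARAP at 95.4 ± 3.30. VCP and GABARAP differed by less than 1 SD of VCP. The lowest were TFEB at 3.15 ± 0.571, GPNMB, a glycoprotein of lysosomes and melanosomes, at 0.483 ± 0.0340, and MAP1LC3A at 0.0161 ± 0.00746 CPM per kb. In DMSO, CTSD led at 860 ± 35.3 CPM per kb (SD, n = 3), then PSAP at 366 ± 7.49 and SQSTM1 at 281 ± 8.77. In shCtrl replicates 1 and 2, PSAP led at 241 ± 4.18 (SD, n = 2), followed by GLA, the galactosidase deficient in Fabry disease, at 123 ± 11.7, with SQSTM1 sixth at 70.9 ± 0.0102.

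**Figure D1:**
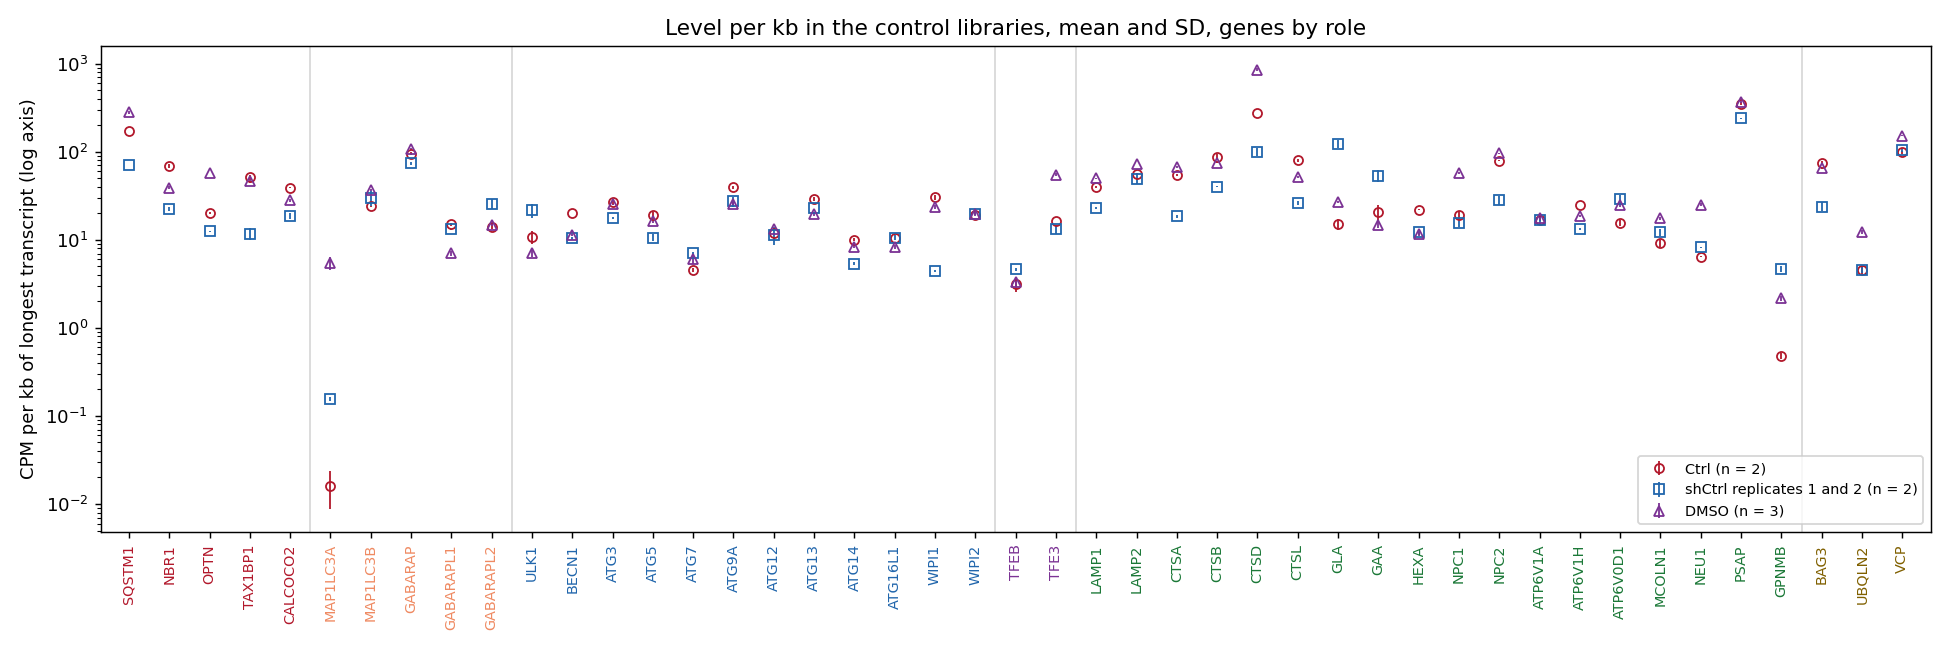
Level of each gene in the control libraries, in CPM per kb of the longest transcript (log axis), as the mean and SD of Ctrl (2 libraries), shCtrl replicates 1 and 2 (2 libraries) and DMSO (3 libraries), with genes grouped by role along the horizontal axis. PSAP, CTSD and SQSTM1 are near the top in Ctrl and DMSO, and MAP1LC3A is lowest in Ctrl at 0.0161 CPM per kb.

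The control groups differed from each other at some of these genes, and no test was made across experiments. WIPI1, which binds the lipid PI3P on forming autophagosomes, stood at 8.26 and 8.49 CPM in shCtrl replicates 1 and 2 but at 54.1 and 60.2 in Ctrl. GLA stood the other way, at 163 and 187 CPM in those shCtrl libraries, against 19.2 and 23.7 in Ctrl and 21.0 in shCtrl replicate 3. MAP1LC3A had 3 counts over both Ctrl libraries and 899 counts over the 3 DMSO libraries, where it was at 7.25 to 10.2 CPM.

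After Nexturastat A, the receptor SQSTM1 and 2 ATG8 genes (MAP1LC3B, GABARAPL1) rose, as did 6 of 18 lysosome genes (GPNMB, CTSD, CTSB, PSAP, NEU1, GAA), while the receptor NBR1 and the co-chaperone BAG3 fell, and 11 of 12 core autophagy genes did not pass the test. A gene is called here when edgeR's quasi-likelihood test gave a Benjamini-Hochberg adjusted p under 0.05 over all genes tested. By that rule 13 of 44 genes tested were called, or 29.5%, with 10 higher and 3 lower. Over all 16678 genes tested 36.6% were called, 21.1% higher and 15.5% lower, so the share among these genes was not above the background. Their median log2 fold change was 0.03, the same as over all genes.

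Among the receptors, SQSTM1 stood at 509 and 510.0 CPM in Ctrl and at 1273 and 1123 in NextA. Both NextA libraries were far above both Ctrl libraries, and the log2 fold change was 1.23 ± 0.14 (SE, edgeR adjusted p = 0.00172), or 2.35-fold. NBR1, a receptor of similar domain make-up, went from 331 and 308 CPM to 232 and 219. The groups did not overlap, and NBR1 fell by 0.50 ± 0.12 on the log2 scale (edgeR adjusted p = 0.0180). OPTN, TAX1BP1 and CALCOCO2, receptors that also serve in the removal of mitochondria and bacteria, had log2 fold changes of 0.24, -0.17 and -0.23 and were not called. SQSTM1 lies on GRCh38 at chr5:179806398-179838078 on the plus strand.

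Of the ATG8 genes, MAP1LC3B, which encodes the usual autophagosome marker LC3B, stood at 73.8 and 75.0 CPM in Ctrl and at 133 and 107 in NextA. GABARAPL1 stood at 49.6 and 46.5 CPM in Ctrl and at 78.2 and 71.6 in NextA. Both genes were higher in each treated library, with log2 fold changes of 0.69 ± 0.14 (edgeR adjusted p = 0.0110) and 0.64 ± 0.13 (0.00979). GABARAPL2 had a log2 fold change of 0.54 ± 0.20 and GABARAP of 0.11 ± 0.12, neither called, and MAP1LC3A, with 3 counts in Ctrl and 0 in NextA, was not tested. MAP1LC3B2, a near-identical copy of MAP1LC3B on another chromosome, was called higher too at 2.56 ± 0.61, from 0.358 and 0.185 CPM to 2.31 and 0.919. How reads were split between these copies is not stated.

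The core autophagy genes showed little of this. WIPI1 was the only one called, at 60.2 and 54.1 CPM in Ctrl and 88.3 and 70.3 in NextA, with a log2 fold change of 0.47 ± 0.15 (edgeR adjusted p = 0.0479). The median over the 12 genes was -0.19. ATG9A, the membrane protein that seeds the autophagosome, was at -0.36 ± 0.12 and missed the threshold (adjusted p = 0.0516). TFEB and TFE3 had log2 fold changes of 0.45 ± 0.24 and 0.30 ± 0.12, and neither was called.

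Lysosome genes were called in 7 of 18 cases, 6 higher and 1 lower, with a median log2 fold change of 0.30. That share, 38.9%, was near the 36.6% called over all genes. GPNMB stood at 1.45 and 1.31 CPM in Ctrl and at 15.6 and 8.88 in NextA. The lower NextA library was still several times above Ctrl: 1481 counts against 163 give a ratio of 8.85 (95% counting interval 7.53 to 10.5), and the log2 fold change was 3.15 ± 0.33 (edgeR adjusted p = 0.00138). CTSD stood at 588 CPM in both Ctrl libraries and at 1086 and 1014 in NextA, a log2 fold change of 0.84 ± 0.13 (adjusted p = 0.00457). The cysteine protease cathepsin B, CTSB, stood at 360.0 and 322 CPM in Ctrl and at 652 and 478 in NextA (0.73 ± 0.18), and PSAP at 1042 and 989 against 1941 and 1389 (0.71 ± 0.19). In both, NextA replicate 1 was the higher, and neither overlapped Ctrl. The sialidase NEU1 rose by 0.57 ± 0.14 and the acid glucosidase GAA by 0.52 ± 0.16 on the log2 scale. HEXA, a subunit of the hexosaminidase lost in Tay-Sachs disease, fell by 0.39 ± 0.12, while both LAMP genes, both NPC genes and the 3 V-ATPase genes were not called.

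Of 4 melanocyte markers, PMEL and DCT rose as GPNMB did. The premelanosome gene PMEL stood at 3.09 and 2.32 CPM in Ctrl and at 13.0 and 11.9 in NextA, a log2 fold change of 2.20 ± 0.23 (edgeR adjusted p = 0.00145). The pigment enzyme DCT stood at 0.666 and 0.674 CPM in Ctrl and at 5.54 and 8.997 in NextA, a log2 fold change of 3.44 ± 0.34 (adjusted p = 0.00117). MLANA, at 0.188 and 0.034 CPM against 0.033 and 0.049, and TYR, at 0 counts in all 4 libraries, were too low to be tested, and the 4 markers summed to 2.90 to 3.75 CPM in Ctrl and 17.8 to 20.3 in NextA. MITF, the melanocyte relative of TFEB, was at 0.22 ± 0.17 and was not called. The 5 macrophage markers summed to 1.14 to 1.17 CPM in Ctrl and 2.10 to 2.56 in NextA. Other marker lists moved both ways in sum. The 6 MDA-MB-231 genes fell from 5902 to 6009 CPM in Ctrl to 2944 to 4062 in NextA. The 4 lung epithelium genes fell from 211 to 305 CPM to 32.7 to 40.4. The keratin genes listed for MDA-MB-231, KRT8 and KRT18, rose from 1057 to 1163 CPM in Ctrl to 1400 to 1937 in NextA. The part of any of these lists in the Nexturastat A results was not tested.

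BAG3, an HSP70 co-chaperone that directs aggregates to autophagy, stood at 200.2 and 188 CPM in Ctrl and at 104 and 150.4 in NextA. Both NextA libraries were lower, and BAG3 fell by 0.61 ± 0.18 on the log2 scale (edgeR adjusted p = 0.0373). Its partner HSPB8, a small heat shock protein, went the other way, from 3.31 and 4.34 CPM to 35.8 and 42.5, a log2 fold change of 3.35 ± 0.21 (adjusted p = 0.000354). VCP and UBQLN2 were at -0.01 and -0.13, neither called.

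The count of calls after Nexturastat A depended on which library was left out. Most of the 13 genes were no longer called without either Ctrl library, and more genes were called without either NextA library. A fit without a Ctrl library takes its spread within groups from the NextA pair alone, and a fit without a NextA library from the Ctrl pair alone. The correlation of log levels was 0.983 between the NextA libraries and 0.993 between the Ctrl libraries. Its part in these counts was not tested. BAG3 and HEXA were not called when libraries were scaled by their totals alone. BAG3, HEXA and NBR1 were not called at a minimum mean of 5 CPM. PSAP, HEXA and WIPI1 were not called after trends on GC content and transcript length were removed. Transcript length had a rank correlation with the effects of -0.47 over these genes and -0.17 over all genes. GAA was not called with limma voom, nor WIPI1 without NextA replicate 1.

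**Figure D2:**
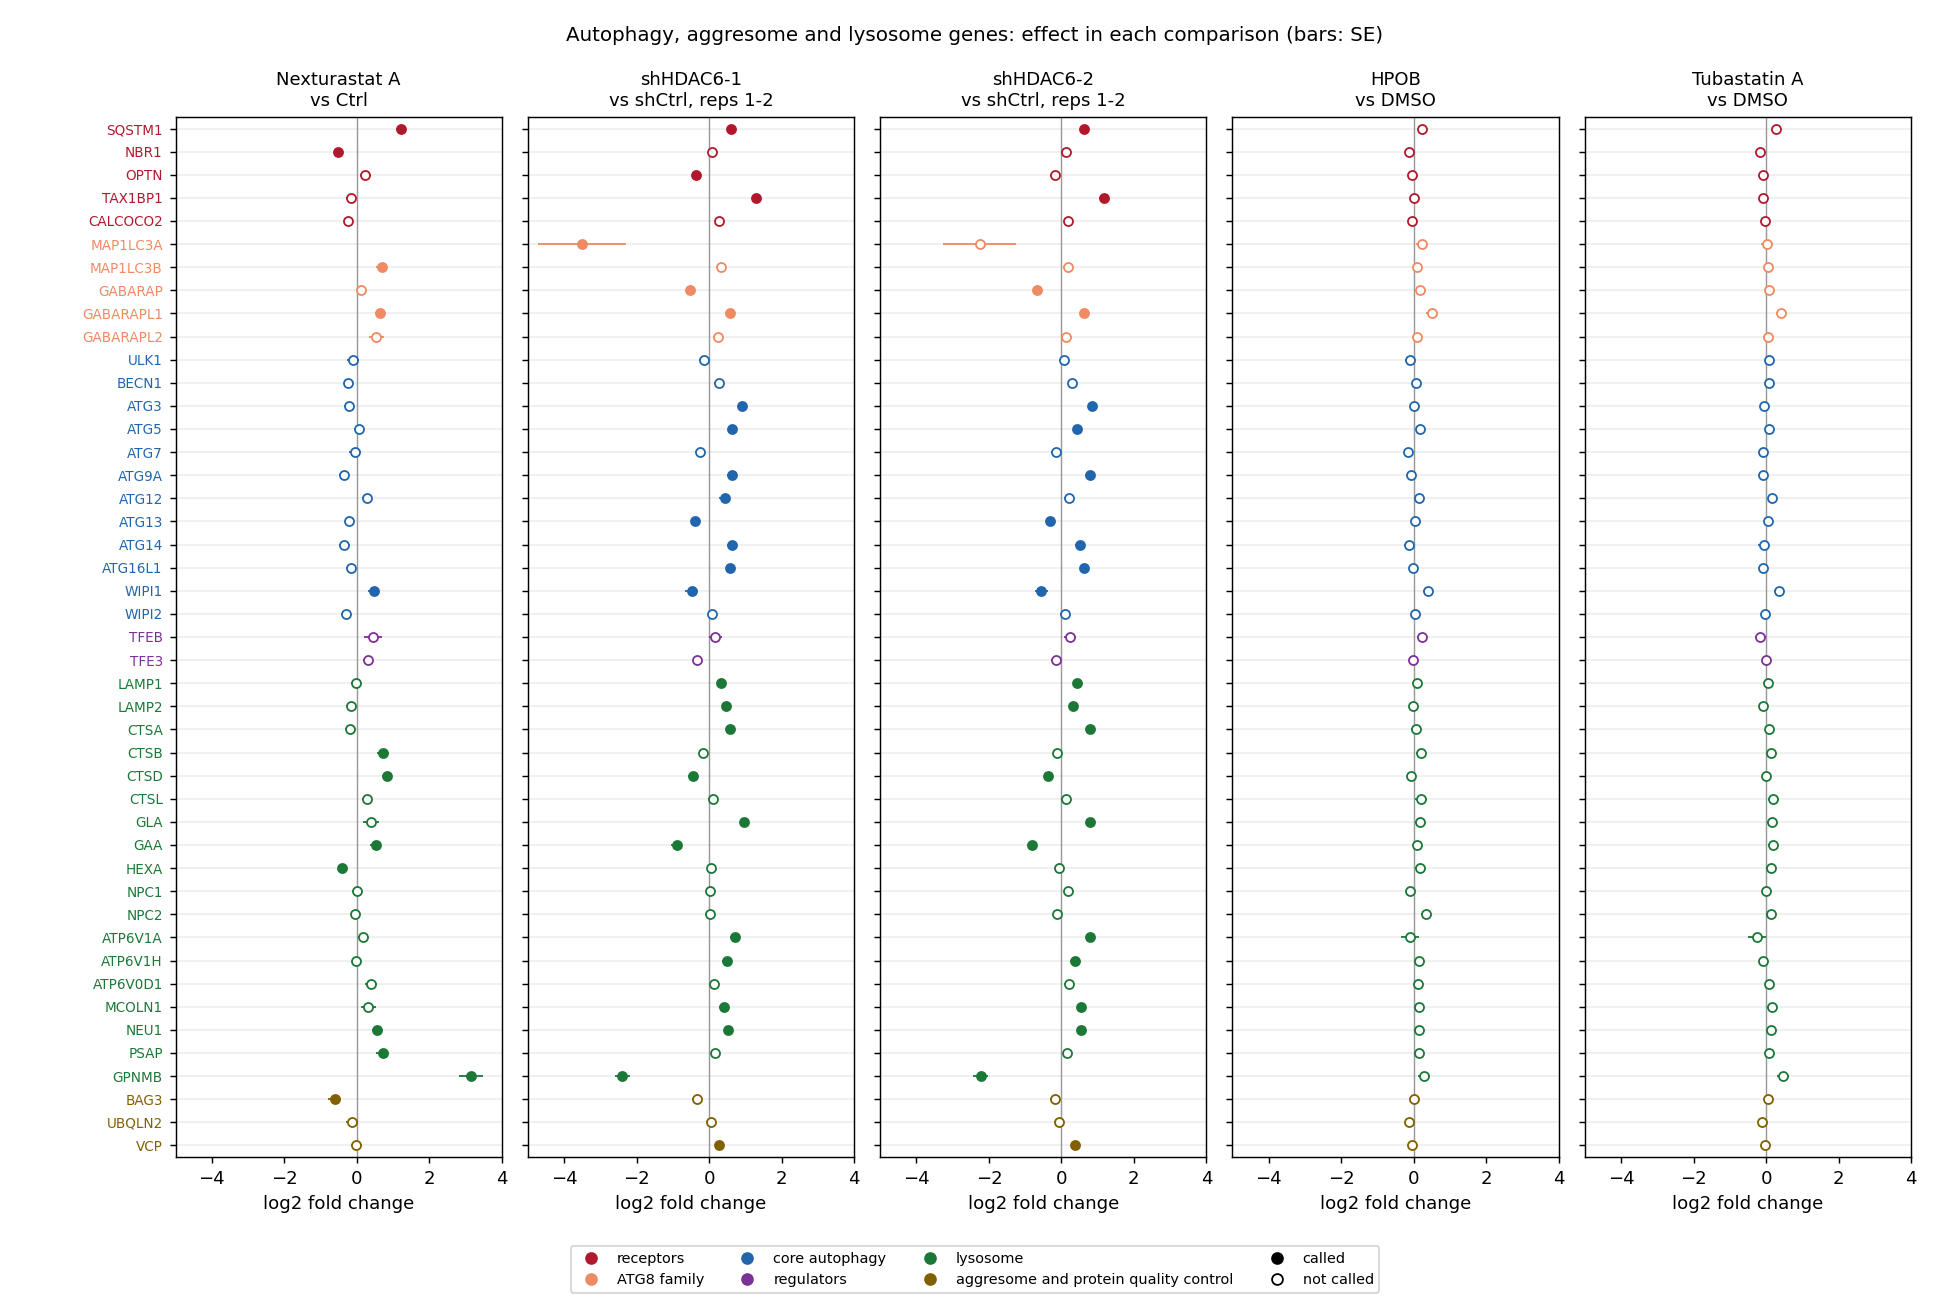
Log2 fold change (horizontal axes) with its SE for each gene (vertical axis, coloured by role) in the 5 comparisons with a control; filled points are called and open points are not. Filled points appear with Nexturastat A (13) and with the hairpins in replicates 1 and 2 (26 and 23), and none appears with HPOB or Tubastatin A.

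With the HDAC6 hairpins, in replicates 1 and 2, more of these genes were called and they included the core machinery. SQSTM1, TAX1BP1, GABARAPL1, 5 core autophagy genes and 8 lysosome genes rose with both hairpins, as did VCP, while GABARAP, ATG13, WIPI1, CTSD, GAA and GPNMB fell with both. With shHDAC6-1, 26 of 45 genes were called, or 57.8%, with 18 higher and 8 lower; over 17702 genes tested 30.5% were called, 15.3% higher and 15.2% lower. With shHDAC6-2, 23 were called, or 51.1%, with 17 higher and 6 lower, against 27.6% of all genes, 14.4% higher and 13.2% lower. Median log2 fold changes were 0.17 and 0.19, against -0.02 and 0.00 over all genes. The hairpins share their control libraries. All 23 genes called with shHDAC6-2 were called with shHDAC6-1 in the same direction, and OPTN, MAP1LC3A and ATG12 were called with shHDAC6-1 alone. Over all genes, 3908 of the 4880 called with shHDAC6-2 were called with shHDAC6-1 in the same direction.

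TAX1BP1, a receptor that recruits the machinery to ubiquitin condensates, gave the largest rise. It stood at 52.8 and 42.1 CPM in shCtrl, at 115 and 119 with shHDAC6-1 and at 115 and 97.8 with shHDAC6-2. All 4 hairpin libraries were above both controls, and log2 fold changes were 1.31 ± 0.13 (edgeR adjusted p = 1.06e-07) and 1.17 ± 0.13 (5.43e-07). SQSTM1 stood at 212 CPM in both shCtrl libraries, at 315 and 332 with shHDAC6-1 and at 304 and 346 with shHDAC6-2. The 4 hairpin libraries did not overlap the controls, and log2 fold changes were 0.61 ± 0.11 and 0.62 ± 0.11 (edgeR adjusted p = 0.000249 and 0.000248). NBR1, which fell after Nexturastat A, was at 0.08 and 0.13, not called. TAX1BP1 lies on GRCh38 at chr7:27739331-27844564 on the plus strand.

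The ATG8 genes split. GABARAPL1 stood at 41.9 and 42.7 CPM in shCtrl, at 62.6 in both shHDAC6-1 libraries and at 65.1 and 66.1 with shHDAC6-2, log2 fold changes of 0.56 ± 0.12 and 0.63 ± 0.12. GABARAP, its close paralogue, stood at 125 and 117 CPM in shCtrl, at 85.3 and 84.0 with shHDAC6-1 and at 75.4 and 77.4 with shHDAC6-2. Every hairpin library was higher than the controls for GABARAPL1 and lower for GABARAP, which fell by 0.52 ± 0.11 and 0.66 ± 0.11 on the log2 scale. MAP1LC3B stood at 107 and 79.8 CPM in shCtrl, at 115 and 119.9 with shHDAC6-1 and at 109.8 and 103 with shHDAC6-2. Its controls lay further apart than its hairpin libraries, and log2 fold changes of 0.33 ± 0.13 and 0.19 ± 0.13 were not called. MAP1LC3A had 29 counts in shCtrl, 2 with shHDAC6-1 and 6 with shHDAC6-2, so that the controls were higher 12.5-fold (95% counting interval 3.16 to 108) and 4.97-fold (2.03 to 14.7).

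In the core machinery, 7 of 12 genes were called with both hairpins, 5 higher and 2 lower, beside 3908 of all 17702 genes tested. ATG3, the enzyme that transfers ATG8 proteins to lipid, stood at 54.8 and 52.9 CPM in shCtrl, at 96.9 and 107 with shHDAC6-1 and at 96.1 and 96.6 with shHDAC6-2. No hairpin library came near the controls, and log2 fold changes were 0.92 ± 0.12 and 0.84 ± 0.12 (edgeR adjusted p = 3.06e-06 and 1.00e-05). ATG5 and ATG16L1, which with ATG12 form the complex that directs this transfer, rose by 0.64 ± 0.13 and 0.57 ± 0.12 with shHDAC6-1 and by 0.43 ± 0.13 and 0.63 ± 0.12 with shHDAC6-2. ATG14, a subunit of the lipid kinase complex with BECN1, rose by 0.63 ± 0.13 and 0.51 ± 0.13, and ATG9A by 0.63 ± 0.12 and 0.78 ± 0.12. ATG9A stood at 99.3 and 120.4 CPM in shCtrl and at 166 to 203 in the 4 hairpin libraries. ATG13, a subunit of the ULK1 kinase complex, fell by 0.38 ± 0.11 and 0.32 ± 0.11 on the log2 scale, and WIPI1 by 0.47 ± 0.18 and 0.55 ± 0.18. WIPI1 stood at only 8.49 and 8.26 CPM in shCtrl, and 24.3% of its exon bases overlap ARSG on the opposite strand, which cannot be told apart where counting ignores strand. ULK1, BECN1, ATG7 and WIPI2 were called with neither hairpin.

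Lysosome genes were called in 11 of 18 cases with each hairpin (61.1%), 8 higher and 3 lower, beside 30.5% and 27.6% of all genes. GLA stood at 187 and 163 CPM in shCtrl, at 336 and 346 with shHDAC6-1 and at 309.6 and 295 with shHDAC6-2, log2 fold changes of 0.96 ± 0.11 and 0.79 ± 0.11. The V-ATPase subunit ATP6V1A stood at 85.3 and 70.8 CPM in shCtrl, at 132 and 122 with shHDAC6-1 and at 142 and 130.3 with shHDAC6-2, log2 fold changes of 0.71 ± 0.12 and 0.80 ± 0.12. For both genes every hairpin library was above both controls. CTSA, a carboxypeptidase that also protects NEU1, rose by 0.58 ± 0.12 and 0.79 ± 0.12, NEU1 by 0.53 ± 0.12 and 0.55 ± 0.12, and the calcium channel MCOLN1 by 0.42 ± 0.13 and 0.55 ± 0.13. The membrane proteins LAMP1 (0.32 and 0.42) and LAMP2 (0.47 and 0.33) and the V-ATPase subunit ATP6V1H (0.50 and 0.37) rose as well.

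The 3 lysosome genes that fell were GPNMB, GAA and CTSD. GPNMB stood at 14.1 and 12.6 CPM in shCtrl, at 2.30 and 2.79 with shHDAC6-1 and at 2.31 and 3.43 with shHDAC6-2. All hairpin libraries were far below the controls: 1575 control counts against 260 and 347 make the controls 5.22-fold (95% counting interval 4.58 to 5.98) and 4.67-fold (4.16 to 5.26) higher, and log2 fold changes were -2.39 ± 0.21 and -2.22 ± 0.21 (edgeR adjusted p = 1.98e-08 and 4.84e-08). Of the melanocyte markers PMEL was lower too, from 12.1 and 12.6 CPM in shCtrl to 4.81 and 4.93 with shHDAC6-1 and 4.05 and 4.97 with shHDAC6-2, and MITF fell by 0.68 ± 0.14 and 0.69 ± 0.14. DCT, at 2.22 and 3.26 CPM in shCtrl, was at 3.65 and 3.24 with shHDAC6-1 and 2.87 and 2.99 with shHDAC6-2, which overlap, and it was not called, nor was MLANA (at most 0.449 CPM), while TYR (at most 0.155 CPM) was not tested. The 4 markers summed to 13.8 to 15.3 CPM in shCtrl and 6.86 to 8.29 with the hairpins, and their part in the GPNMB result was not tested. GAA stood at 174 and 215 CPM in shCtrl, at 106 and 103 with shHDAC6-1 and at 91.5 and 129.5 with shHDAC6-2, and fell by 0.89 ± 0.14 and 0.82 ± 0.14 on the log2 scale. CTSD stood at 196 and 226 CPM in shCtrl, at 149 and 159 with shHDAC6-1 and at 142 and 187 with shHDAC6-2, and fell by 0.45 ± 0.13 and 0.36 ± 0.13. For both genes shHDAC6-2 replicate 2 was the highest hairpin library, and neither gene's hairpin values reached its controls.

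Of the lysosome genes called with both hairpins that have a promoter sequence, LAMP1, CTSA, GAA, MCOLN1, NEU1 and CTSD hold CACGTG, the core of the CLEAR element, and GLA and GPNMB do not. LAMP1, CTSA, GAA and MCOLN1 also hold the longer TCACGTGA, and 4 promoters show these forms. Windows from 250 bases before to 50 after the start were read from RefSeq (GRCh38.p14) for 38 of the 45 genes; MAP1LC3A, LAMP2, CTSB, HEXA, ATP6V1A, ATP6V1H and PSAP had none. Capitals mark CACGTG, or TCACGTGA where the core lies within it; both read the same on either strand. The stretches before the start are those of GAA (chr17:80101484-80101576, plus strand), MCOLN1 (chr19:7522562-7522623, plus strand), LAMP1 (chr13:113297027-113297122, plus strand) and NEU1 (chr6:31862922-31862967, minus strand).
GAA: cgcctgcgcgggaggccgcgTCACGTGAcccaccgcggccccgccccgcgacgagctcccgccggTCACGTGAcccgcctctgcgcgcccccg
MCOLN1: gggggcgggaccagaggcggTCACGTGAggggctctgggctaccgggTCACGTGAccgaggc
LAMP1: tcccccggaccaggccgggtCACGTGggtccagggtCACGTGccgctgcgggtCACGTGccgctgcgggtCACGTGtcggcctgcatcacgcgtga
NEU1: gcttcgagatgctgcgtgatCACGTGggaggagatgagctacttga

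For LAMP1 the stretch shown holds the core alone, and TCACGTGA lies nearer the start. It begins 29 bases before the start and again 2 bases before it, where it runs across the start. Counting a gene once if any of its windows has the motif, CACGTG was found for 9 of the 38 genes (23.7%) and TCACGTGA for 6 (15.8%), against 10.5% and 1.53% of the 16199 genes of the count tables that have a window. By role, 7 of 12 lysosome genes with a window (58.3%) and 2 of 12 core autophagy genes held CACGTG, and no receptor, ATG8, regulator or aggresome gene did. The genes were chosen by name and CLEAR is known from genes of this kind, so the higher shares are not a result of these data. Per window, over the 35116 windows of the whole promoter table, the shares were 7.26% and 0.98%. The genes that held it did not move one way. With both hairpins ATG3, ATG14, LAMP1, CTSA, MCOLN1 and NEU1 were called higher and CTSD and GAA lower, while ATP6V0D1 was not called; after Nexturastat A, CTSD, GAA and NEU1 were called higher. Of the 29 genes without it, 8 were called higher and 4 lower with both hairpins, beside 3908 of all 17702 genes tested. The share called among all genes that hold CACGTG was not counted, so no link of the motif to the calls can be read from these counts. A match is a description of the letters and not a bound site.

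In the aggresome group, VCP stood at 441 and 477 CPM in shCtrl, at 540.1 and 575 with shHDAC6-1 and at 589.6 and 610.0 with shHDAC6-2. The hairpin libraries were all higher, and VCP rose by 0.28 ± 0.11 and 0.39 ± 0.11 on the log2 scale (edgeR adjusted p = 0.0478 and 0.00843). BAG3 stood at 56.5 and 66.4 CPM in shCtrl, at 50.6 and 47.5 with shHDAC6-1 and at 48.2 and 61.2 with shHDAC6-2. The shHDAC6-2 libraries overlapped the controls, and log2 fold changes of -0.33 ± 0.13 and -0.17 ± 0.13 were not called. UBQLN2, a shuttle for ubiquitinated proteins, was at 0.05 and -0.06.

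Between the hairpins themselves edgeR called 0 genes (0.00%) of 17702 and 0 of these 45; at an unadjusted p under 0.05 it gave 1107 genes (6.25%) and 0 of the 45. DESeq2 called 0 of the 45 as well. For SQSTM1 the difference of shHDAC6-2 from shHDAC6-1 had a 95% interval of -0.23 to 0.24, for TAX1BP1 of -0.40 to 0.12 and for GPNMB of -0.28 to 0.62 on the log2 scale.

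The hairpin calls rest on replicates 1 and 2 alone: with all 9 libraries in 1 fit edgeR called 0 genes and 0 of these 45. Scaled by library totals alone, 24 and 20 of the 45 were called (14 higher and 10 lower for shHDAC6-1, 14 and 6 for shHDAC6-2), and the share of higher genes among all calls went from 50.1% to 36.9% and from 52.1% to 35.8%. Without shHDAC6-1 replicate 2 the 26 calls with that hairpin became 17, with OPTN, ATG12, ATG13, LAMP1, WIPI1, MCOLN1, MAP1LC3A, ATP6V1H and VCP lost. CTSD was not called with either hairpin, nor ATG12 with shHDAC6-1, after GC and length trends were removed. That removal raised the calls to 30 and 29, with PSAP, ULK1, ATP6V0D1, TFEB and CTSL gained for both hairpins, WIPI2 for shHDAC6-1, and OPTN and HEXA for shHDAC6-2. GC content moved with these effects, with a rank correlation across genes of -0.38 and -0.27 over all genes and -0.33 and -0.21 over these genes; its part in the calls was not tested beyond that removal.

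**Figure D3:**
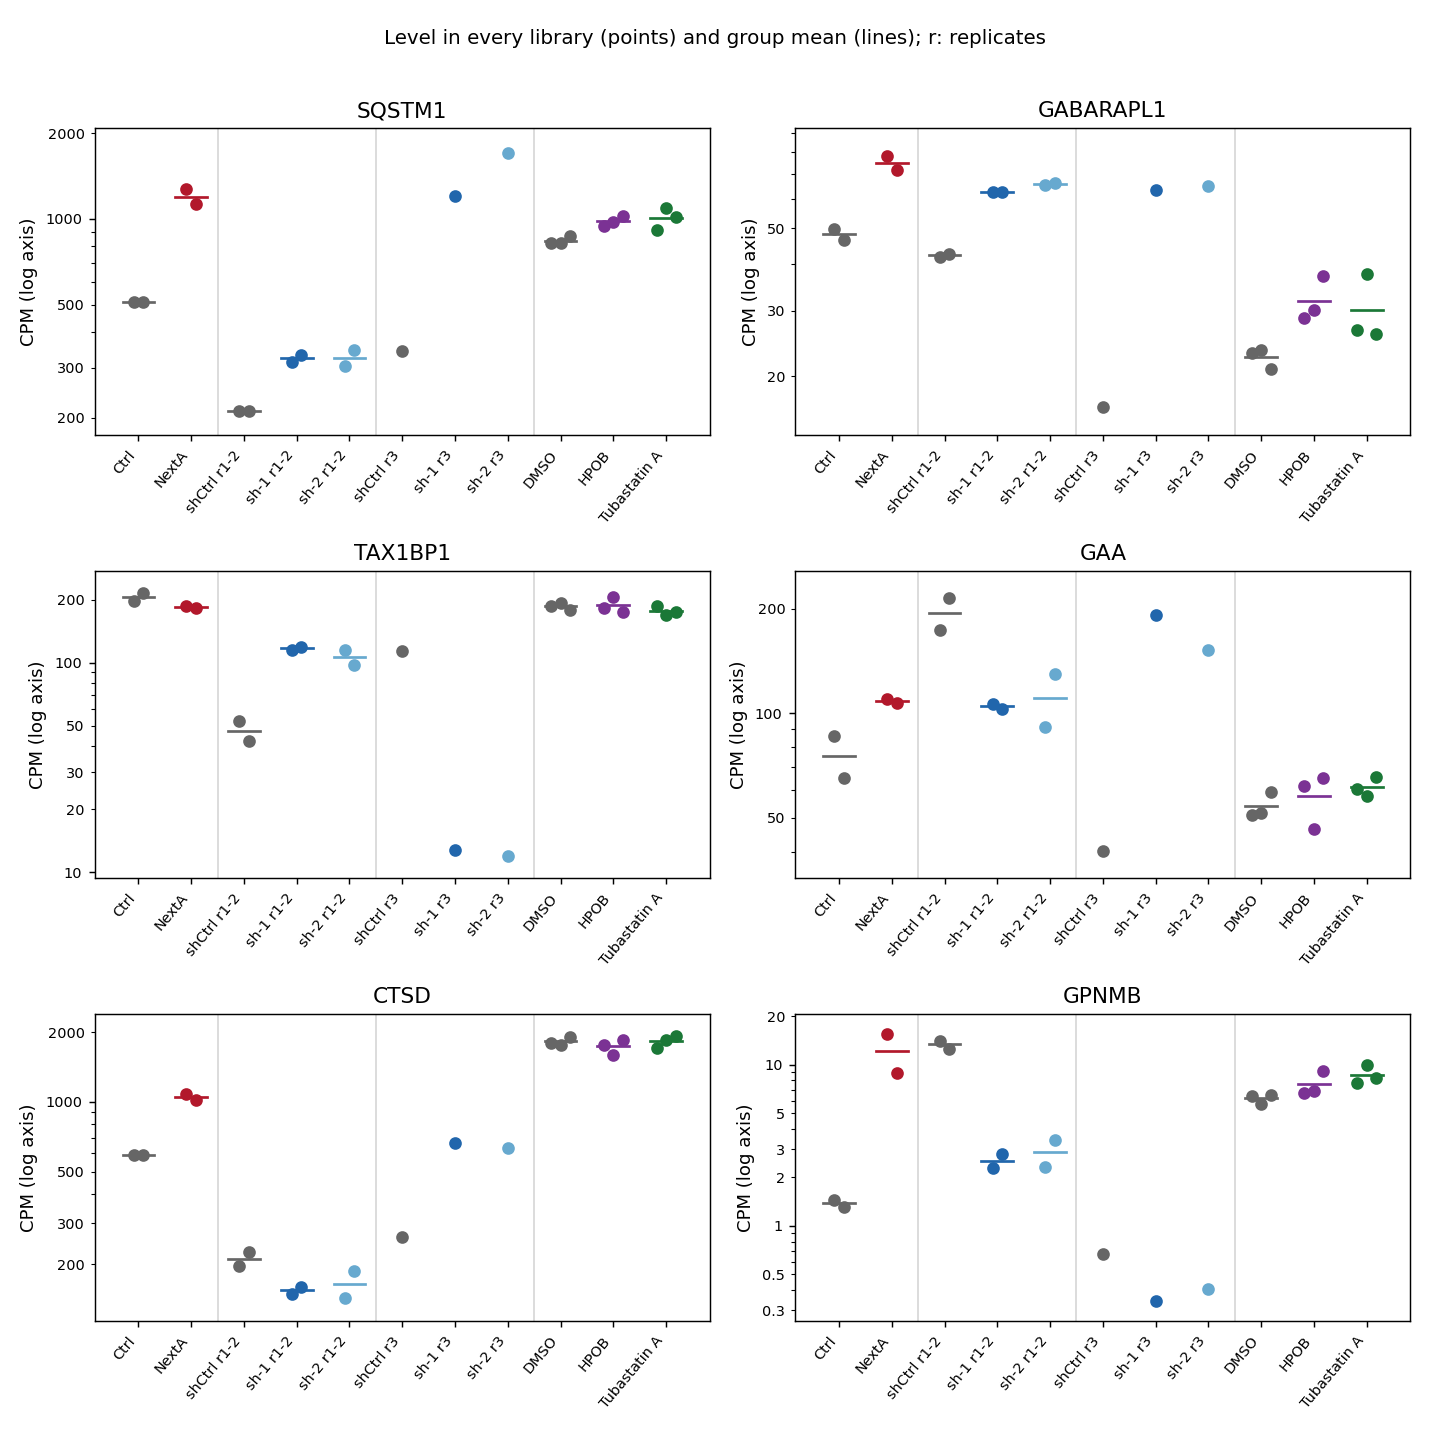
Level of 6 genes in every library, in CPM on log axes, with points for libraries and lines for group means where a group has more than 1 library. SQSTM1 and GABARAPL1 are above their controls in NextA and in every hairpin library, GAA, CTSD and GPNMB are higher in NextA and lower with the hairpins in replicates 1 and 2, and TAX1BP1 is higher with the hairpins in replicates 1 and 2 but lower in replicate 3.

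Nexturastat A and the hairpins have separate controls, so their calls can be set side by side. 7 genes were called after Nexturastat A and with both hairpins, which is 53.8% of the 13 and 30.4% of the 23. SQSTM1, GABARAPL1 and NEU1 were higher in both experiments. WIPI1, CTSD, GAA and GPNMB were higher after Nexturastat A and lower with the hairpins. Over all genes, 1393 were called in both experiments, which is 22.8% of the 6112 called after Nexturastat A and 35.6% of the 3908 called with both hairpins, and 35.5% of the 1393 had the same direction, against 42.9% of the 7. The difference between the experiments was not tested, and the marker genes above show that their controls were unlike. 13 genes were called in no comparison: CALCOCO2, GABARAPL2, ULK1, BECN1, ATG7, WIPI2, TFEB, TFE3, CTSL, NPC1, NPC2, ATP6V0D1 and UBQLN2.

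In replicate 3 there was 1 library per group, so no test was possible, and values are log2 ratios of CPM + 0.5. SQSTM1 was at 344 CPM in shCtrl, 1205 with shHDAC6-1 and 1710.4 with shHDAC6-2, 3.50-fold and 4.97-fold higher, and GABARAPL1 was at 16.5, 63.2 and 64.7 CPM, 3.74-fold and 3.83-fold higher. NEU1 was at 16.0, 71.3 and 55.8 CPM. For all 3 genes replicate 3 had the direction of replicates 1 and 2. TAX1BP1 had the opposite one: it was at 114 CPM in shCtrl and at 12.7 and 11.9 with the hairpins, log2 ratios of -3.12 and -3.21. ATG5 was at 46.7 CPM against 8.79 and 8.84, ATG3 at 86.2 against 28.9 and 33.3, and ATP6V1A at 56.8 against 12.7 and 12.5, each lower with the hairpins where replicates 1 and 2 were higher.

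GAA and CTSD turned the other way: GAA was at 40.1 CPM in shCtrl and at 192 and 152 with the hairpins, and CTSD at 262.5 against 664 and 633. GPNMB, at 48, 28 and 23 counts, was too low to follow. Of 22 genes called with both hairpins in replicates 1 and 2 and measured here, 10 had the same sign in replicate 3 (45.5%) and 12 the opposite one. Over all genes, 3444 were called with both hairpins and measured in replicate 3, and 28.0% of them had the same sign. Past 2-fold were 14 higher and 7 lower of the 43 genes measured with shHDAC6-1, and 17 and 7 with shHDAC6-2. Over 13039 genes, 59.0% were past 2-fold for shHDAC6-1, made up of 26.0% above and 32.9% below shCtrl. For shHDAC6-2 the share was 55.9%, with 24.1% above and 31.9% below. The median log2 ratio was 0.69 with each hairpin over these genes, against -0.04 and -0.01 over all genes.

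GC content of the longest transcript moved with the replicate 3 ratios. The rank correlation across genes was 0.81 and 0.80 over all genes and 0.70 and 0.68 over these 43 (genes are not independent replicates). ATG5 (38.8% GC), ATG12 (37.5%), LAMP2 (37.7%) and ATG3 (39.9%) were lower in both hairpin libraries, and GAA (64.1%), CTSD (64.0%) and ULK1 (64.2%) were higher. Other genes departed from this order: TAX1BP1, with the lowest ratio of all, has 48.0% GC, close to GABARAPL1 (47.8%), which was higher, and GABARAPL2 (42.1%) was higher as well. The part of GC content in the replicate 3 ratios was not tested.

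**Figure D4:**
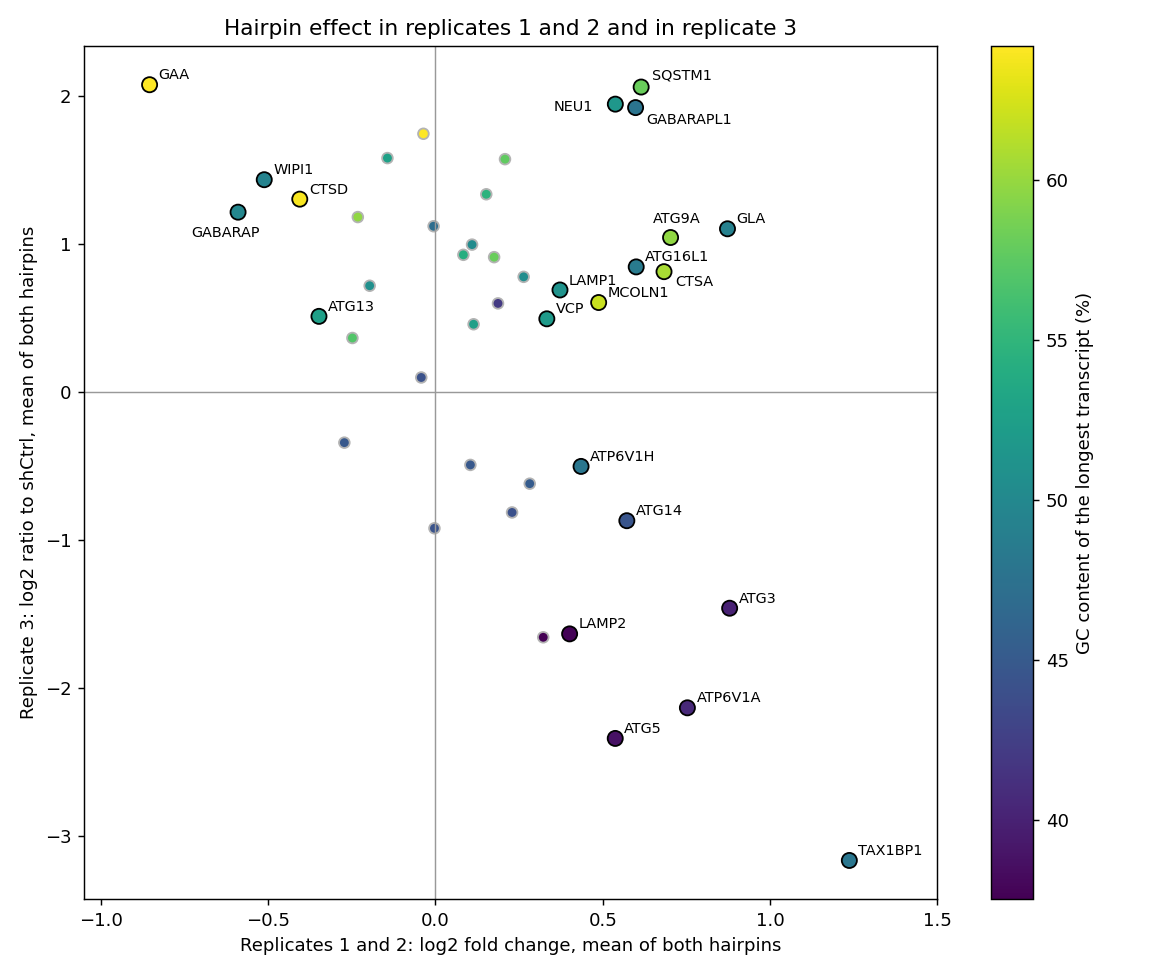
Mean of both hairpins for the 43 genes measured in replicate 3: log2 fold change in replicates 1 and 2 (horizontal axis) against the log2 ratio in replicate 3 (vertical axis), coloured by GC content; large ringed and named points are called with both hairpins. Of these, 10 lie in the quadrants of like sign and 12 in the quadrants of opposite sign, and among the points low on the vertical axis TAX1BP1, the lowest, has 48.0% GC while ATG5, ATP6V1A, ATG12, LAMP2 and ATG3 have 37.5% to 40.6%.

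With HPOB and with Tubastatin A, none of these genes passed the adjusted threshold in edgeR. SQSTM1 stood at 824, 824 and 869 CPM in DMSO, at 945, 976 and 1022 with HPOB and at 915, 1093 and 1018 with Tubastatin A. Its treated libraries were all above DMSO, but log2 fold changes of 0.22 ± 0.10 (95% interval 0.01 to 0.44) and 0.27 ± 0.10 (0.05 to 0.48) were not called (edgeR adjusted p = 0.476 and 0.857). The upper ends of these intervals are below the log2 fold change of 1.23 after Nexturastat A, a difference that was not itself tested. The doses of HPOB and Tubastatin A are not stated, and SQSTM1 stood at 509 and 510 CPM in Ctrl against 824 to 869 in DMSO. The compounds therefore cannot be ranked by these values. With HPOB edgeR called 4 of 15338 genes (0.0261%) and 0 of these 45; at an unadjusted p under 0.05 it gave 1588 genes (10.4%) and 4 of the 45. With Tubastatin A it called 0 genes (0.00%) and 0 of the 45, and 757 genes (4.94%) and 4 of the 45 at an unadjusted p under 0.05. DESeq2 called 120 and 23 genes, limma voom 51 and 21, and neither called any of the 45.

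The unadjusted 4 were SQSTM1, GABARAPL1 and WIPI1 with each compound, with NPC2 added for HPOB and GPNMB for Tubastatin A. GABARAPL1 stood at 23.1, 23.6 and 20.9 CPM in DMSO, at 28.6, 30.1 and 37.1 with HPOB and at 26.7, 37.6 and 26.0 with Tubastatin A. The treated libraries did not overlap DMSO, and log2 fold changes were 0.50 ± 0.15 (95% interval 0.17 to 0.83) and 0.42 ± 0.15 (0.09 to 0.75). GPNMB stood at 6.40, 5.74 and 6.47 CPM in DMSO, at 6.71, 6.84 and 9.17 with HPOB and at 7.72, 9.93 and 8.30 with Tubastatin A, for 0.29 ± 0.17 (-0.07 to 0.65) and 0.48 ± 0.17 (0.12 to 0.84). The lowest HPOB library was just above DMSO, and Tubastatin A replicate 2 was the highest.

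MAP1LC3B stood at 114, 117 and 112 CPM in DMSO, at 114, 141 and 109 with HPOB and at 115, 124 and 117 with Tubastatin A, and BAG3 at 164, 166 and 169 against 172, 163 and 171 and against 168, 170.2 and 186. Both genes overlapped DMSO with each compound, and log2 fold changes were 0.08 and 0.05 for MAP1LC3B and 0.02 and 0.07 for BAG3. With HPOB 11 of the 45 genes lay wholly above DMSO and 0 wholly below, against 11.2% and 10.4% of all genes. With Tubastatin A 5 lay wholly above (SQSTM1, GABARAPL1, ATG12, WIPI1, GPNMB) and 3 wholly below (NBR1, LAMP2, ATP6V1H), against 9.15% and 7.55%. Median log2 fold changes were 0.08 and 0.06, against 0.01 over all genes with each compound. Transcript length moved with these effects. Its rank correlation with them across genes was -0.58 with HPOB and -0.34 with Tubastatin A over these genes. Over all genes it was -0.38 and -0.29. The part of transcript length in these counts was not tested.

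Tubastatin A against HPOB, at doses that are not given, had 0 genes (0.00%) called by edgeR and 0 of the 45, and 481 genes (3.14%) and 2 of the 45 at an unadjusted p under 0.05. DESeq2 called 0 of the 45. The difference had a 95% interval of -0.17 to 0.25 for SQSTM1, -0.41 to 0.24 for GABARAPL1 and -0.17 to 0.55 for GPNMB on the log2 scale. These intervals do not show that the compounds act alike.

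A further 123 genes of the same pathways were listed by role. After Nexturastat A 29 of 121 tested were called higher and 11 lower (33.1%, beside 36.6% of all genes). The group listed as lysosome hydrolases had 12 higher and 6 lower of 30, and lysosome membrane and V-ATPase genes 7 higher and 0 lower of 23. HSPB8 gave the largest change, followed by TFEC, a relative of TFEB at 0.171 and 0 CPM in Ctrl and 0.665 and 0.903 in NextA (3.17 ± 0.96), MAP1LC3B2 (2.56 ± 0.61) and SNCAIP, which binds synuclein (2.23 ± 0.64). Of 122 tested in the knockdown experiment, 32 rose and 21 fell for shHDAC6-1 (43.4%, beside 30.5%), and 31 rose and 19 fell for shHDAC6-2 (41.0%, beside 27.6%).

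The largest hairpin changes among these further genes were falls in ATG16L2 and in 3 genes listed with the lysosome hydrolases, of which GM2A encodes an activator. GM2A, the activator that presents the ganglioside GM2, stood at 55.5 and 59.0 CPM in shCtrl and at 22.0 to 22.8 in the 4 hairpin libraries, log2 fold changes of -1.35 ± 0.13 and -1.36 ± 0.13 (edgeR adjusted p = 5.95e-08 and 6.14e-08). ARSA, the arylsulfatase lost in metachromatic leukodystrophy, stood at 47.3 and 51.4 CPM in shCtrl and at 17.5 to 22.8 with the hairpins (-1.33 ± 0.14 and -1.29 ± 0.14). None of the 4 hairpin libraries reached the controls for either gene. GALNS, a sulfatase of keratan sulfate, was at -1.63 ± 0.17 and -1.53 ± 0.17, and ATG16L2 at -1.33 ± 0.16 and -1.43 ± 0.16. After Nexturastat A, ARSA rose by 1.57 ± 0.20 and GM2A by 0.53 ± 0.12, so both went opposite ways in these experiments, a difference that was not tested. With HPOB and with Tubastatin A, 0 of the 121 tested were called.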

How the data were processed

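The authors deposited 1 table of raw read counts per gene symbol for each of 22 libraries. Per the submitters' processing notes they used Trim Galore 0.6.7, STAR 2.7.9a, featureCounts 2.0.3 and DESeq2 1.30.1 with GRCh38 (hg38). Not given in the sources used here are the annotation and strandedness. Groups come from the labels. The tables hold 0 columns of other series.

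Each experiment was fitted apart with edgeR 4.0.16 in R 4.3.3: scaling by TMM, a filterByExpr filter per group (at least 10 counts, 15 in total), and the robust quasi-likelihood F test with Benjamini-Hochberg adjustment over all genes tested, called under 0.05. The knockdown fit used the 6 libraries of replicates 1 and 2; replicate 3, with 1 library per group, gave ratios of CPM + 0.5 for genes with a mean of at least 1 CPM. Positions, lengths of the longest transcripts and their GC content came from GENCODE release 29 (GRCh38), which matched 23899 symbols. Promoters came from RefSeq (GRCh38.p14). Scripts were tested on simulated data.

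Members and lists were chosen with earlier results of these data known. Named are all called members, and of the other pathway genes up to 4 per comparison. The tested comparisons show the value in every library for SQSTM1, MAP1LC3B, BAG3 and GPNMB. The same holds for most of the called members of each role with the largest change. For ATG5, ATG14, ATG16L1, CTSA and MAP1LC3A in knockdown replicates 1 and 2, only log2 fold changes or summed counts are given. The labels do not say that replicates are separate cultures, so p-values measure only the spread between these libraries, which may be technical. Counting intervals are exact at 95% and cover counting error only, as no molecular identifiers are described. No 2 replicates held the same counts within sampling noise. Alternatives were DESeq2 1.42.0, its size factors in edgeR, library totals, no filter, a mean CPM of at least 5, a replicate block, limma 3.58.1 voom with library weights, removal of GC and length trends (splines with 3 degrees of freedom), each library left out, fits of 2 groups alone, and all 9 knockdown libraries.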

Additional observations from a re-analysis of the deposited data

Results flagged for a closer look

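For 12 genes called with both hairpins, both hairpin libraries of replicate 3 lay on the opposite side of shCtrl from every hairpin library of replicates 1 and 2. The difference between the replicates was not tested, since replicate 3 has 1 library per group. Lower in replicate 3, by the mean log2 ratio of both hairpins, and higher in replicates 1 and 2, by the mean log2 fold change, were the following genes. The receptor TAX1BP1 was at -3.16 in replicate 3 (1.24 in replicates 1 and 2), ATG5 at -2.34 (0.54), ATG3 at -1.46 (0.88) and ATG14 at -0.87 (0.57). The lysosome genes ATP6V1A, LAMP2 and ATP6V1H were at -2.13 (0.75), -1.63 (0.40) and -0.50 (0.44). Higher in replicate 3 and lower in replicates 1 and 2 were GAA at 2.08 (-0.85), WIPI1 at 1.43 (-0.51), CTSD at 1.30 (-0.41), GABARAP at 1.21 (-0.59) and ATG13 at 0.51 (-0.35).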

How the results depend on the processing

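No setting tried, including DESeq2, limma voom and each library left out, called any of the 45 genes with HPOB or Tubastatin A, or between the hairpins. Of the values of named genes under the alternatives, 98 of 120 kept direction and call after Nexturastat A, and 22 kept the direction but not the call. With shHDAC6-1 these were 184 and 30 of 237 (16 gained a call and 7 turned), and with shHDAC6-2 they were 211 and 19 of 238 (1 gained a call and 7 turned). With all 9 knockdown libraries, 0 of the 45 and 0 genes were called with either hairpin. Turned there were BAG3 (0.18), ATG5 (-0.11) and GAA (0.032) with shHDAC6-1, and BAG3 (0.18), TAX1BP1 (-0.081) and GABARAP (0.22) with shHDAC6-2. After removal of GC and length trends BAG3 turned with HPOB (-0.051) and Tubastatin A (-0.026). The causes were not tested.

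Leaving out each library in turn gave 2 to 21 of the 45 genes and 1781 to 8922 genes after Nexturastat A, and 17 to 28 and 3160 to 5999 with shHDAC6-1. It gave 1 to 66 genes between the hairpins and 0 to 78 with HPOB. MAP1LC3B ran from -0.012 to 0.42 with shHDAC6-2 and from -0.042 to 0.15 with HPOB, and BAG3 from -0.00011 to 0.042 with HPOB. Where 1 library of a group was left, it was assumed to vary like the others. A minimum of 5 CPM gave 3586 genes after Nexturastat A, and removal of GC and length trends gave 7379 with shHDAC6-2. Between the hairpins, no filter gave 12 genes, limma voom 1 and these groups alone 57. HPOB had 120 genes with DESeq2, 14 with no filter, 2 at 5 CPM, 51 with voom, 22 without GC and length trends, 20 without HPOB replicate 3 and Tubastatin A replicate 2, and 15 with DMSO and HPOB alone. Tubastatin A had 23 with DESeq2, 21 with voom and 3 without these trends.

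Replicate numbers do not pair libraries by the labels. Deviations of same-numbered libraries correlated at 0.10 (Nexturastat A), -0.046 to 0.16 (6 knockdown pairs) and -0.16 to 0.20 (9 compound pairs). In 14 of 18 comparisons of a compound library with another group the best match had its own number. Compound pairs of unlike number ran wider, from -0.30 to 0.27. The highest of these was HPOB replicate 3 with Tubastatin A replicate 2. With a replicate block 14, 30 and 24 of the 45 were called after Nexturastat A and with the hairpins, and 7 genes with HPOB. The shares over all genes with this block are not given for Nexturastat A and the hairpins, so those counts have no background beside them. Over all 9 knockdown libraries, where same-numbered pairs ran from 0.47 to 0.94 and replicate 3 stands apart, the block gave 0 of the 45 and 0 genes. There TAX1BP1 (-0.52), ATG3 (-0.0096), ATG5 (-0.53) and ATP6V1A (-0.43) turned with shHDAC6-1, and TAX1BP1 (-0.68), ATG3 (-0.048) and ATP6V1A (-0.37) with shHDAC6-2.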

Other observations

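ATP6V1A, the catalytic subunit of the V-ATPase, stood at 45.8 CPM in HPOB replicate 3 and 45.6 CPM in Tubastatin A replicate 2, against 77.2 to 97.4 CPM in the other 7 libraries of that experiment. The same 2 libraries held the highest levels of their groups for GABARAPL1 (37.1 and 37.6 CPM) and the lowest for ATG14 (29.7 and 30.5 CPM).

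The 45 genes together took 0.465% and 0.464% of the counts in shCtrl replicates 1 and 2 and 0.504% to 0.520% in the hairpin libraries of those replicates. In replicate 3 they took 0.473% in shCtrl and 0.740% and 0.809% with the hairpins. In NextA they took 0.931% and 0.822%, against 0.647% and 0.630% in Ctrl.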
